A study of Homo sapiens with 4 samples.

Results

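Low-UMI barcodes are the droplet barcodes of 4 single-cell libraries of BEAS-2B, a virus-immortalized human bronchial epithelial line, that carried few RNA molecules and few mitochondrial ones. A barcode was a member when its total of unique molecular identifiers (UMIs, 1 per captured mRNA molecule), taken 3 times, was under the median of its library, and when genes of the mitochondrial genome (MT genes) took at most 10% of its UMIs. The members were therefore selected on total UMIs and on the MT share, and neither is a finding below. They numbered 20028 of 68085 deposited barcodes, or 29.4%. The comparison used the 47583 barcodes at or above the UMI limit, called other barcodes here. A remainder of 474 barcodes was under the UMI limit but over 10% MT and was in neither pool. The libraries came from cells left without radiation (control) and from cells given 10 mGy, 100 mGy or 1 Gy of Cs-137 gamma rays and sampled 30 min later. The labels name no allele or agent other than the radiation for any group. Each dose had 1 library and no replicate, so dose and library cannot be told apart. A pool of barcodes is not a replicate either, and no test was made between pools or doses.

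In droplet sequencing a barcode marks the contents of 1 droplet, which can be an intact cell, a damaged cell, a nucleus, a cell fragment or only the RNA dissolved in the cell suspension. Total UMIs, the share of MT transcripts, RNAs that stay in the nucleus such as MALAT1, and the cell-to-cell differences of cell cycle genes are the usual readings by which such barcodes are described. In an intact dividing culture, G2/M genes are high in a part of the cells and low in the rest, so their UMIs differ between barcodes by more than counting error.

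The share of low-UMI barcodes was 18.6% in the control (2069 of 11111), 40.7% for 10 mGy (8750 of 21514), 26.9% for 100 mGy (5358 of 19950) and 24.8% for 1 Gy (3851 of 15510). The 10 mGy library had the largest share and the control the smallest. Members held between 2.03% of the UMIs of their library in the control and 5.26% for 10 mGy, which was 4329236 UMIs in the control, 15046288 for 10 mGy, 5869067 for 100 mGy and 5442919 for 1 Gy. The median member carried 1750 UMIs in the control, 1660 for 10 mGy, 844 for 100 mGy and 1238 for 1 Gy. The median other barcode carried 21752, 19927, 15108 and 16426 UMIs in the same order. In the plot of UMIs per barcode, the members formed a peak of their own below the other barcodes at 10 mGy, 100 mGy and 1 Gy, and a broad, low distribution in the control.

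**Figure D1:**
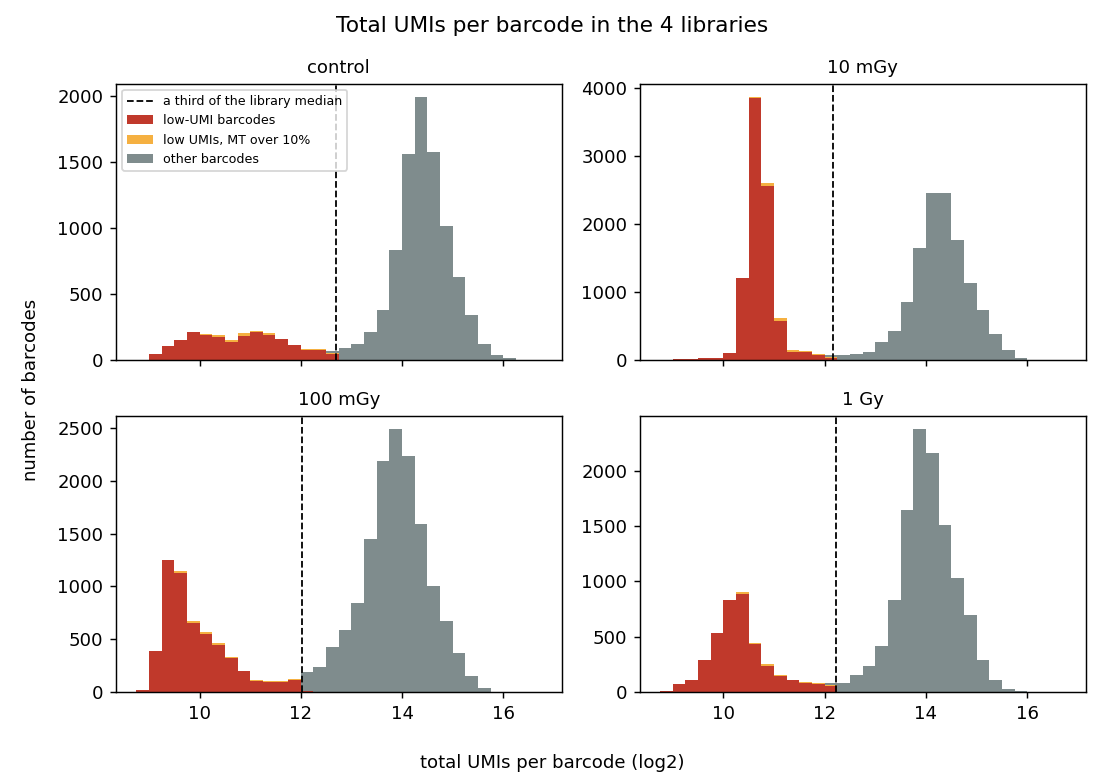
Histograms of total UMIs per barcode on a log2 axis, 1 panel per library, with the number of barcodes on the vertical axis. Red bars are the low-UMI barcodes, orange bars the barcodes under the UMI limit with over 10% MT, grey bars the other barcodes, and the dashed line is the UMI limit. The red peak is narrow at 10 mGy, where the 8750 members lie mostly between 1308 and 2281 UMIs, and wide in the control.

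The width of that distribution differed between the libraries. The range from the 5th to the 95th percentile of members' UMIs spanned 1.74-fold at 10 mGy, 4.13-fold at 1 Gy, 4.46-fold at 100 mGy and 7.95-fold in the control, where it went from 647 to 5146 UMIs. For the other barcodes the same span was 3.43-fold in the control, 3.80-fold for 10 mGy, 4.73-fold for 100 mGy and 3.60-fold for 1 Gy. The rule allowed a wider span in the control, since its limit lay higher while the smallest deposited totals were alike. The limits of the irradiated libraries were close, at 4586 UMIs for 10 mGy, 4139 for 100 mGy and 4759 for 1 Gy, while their members' spans differed. Just inside the limit, the largest members held 6577, 4579, 4137 and 4748 UMIs (control, 10 mGy, 100 mGy, 1 Gy), and the smallest other barcodes held 6637, 4596, 4147 and 4768. No deposited barcode had fewer than 500 UMIs.

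Members also showed few genes, as their depth required. The median was 1159 genes in the control, 989 for 10 mGy, 582 for 100 mGy and 857 for 1 Gy, against 5683, 4968, 4162 and 5020 in other barcodes. With every barcode thinned to 500 UMIs, members showed a median of 414, 389, 385 and 410 genes and other barcodes 407, 388, 382 and 409. At equal depth the 2 kinds of barcode therefore differed by at most 7 genes in the median. Of 67531 distinct barcode sequences, 522 were found in more than 1 library. Among members these were 3.48% in the control, 1.62% for 10 mGy, 1.72% for 100 mGy and 2.41% for 1 Gy, and among other barcodes 1.63%, 1.35%, 1.31% and 1.43%. The part of these shared sequences in the gene results is given by the count without them below.

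The label of the cells was checked on marker genes in the members' pooled UMIs, as CPM, the UMIs of a gene per 1e+06 UMIs of the pool. VIM, an intermediate filament gene abundant in this line, stood at 3452 CPM in control members, 3227 for 10 mGy, 2678 for 100 mGy and 3542 for 1 Gy, against 2686, 2497, 2338 and 2313 CPM in other barcodes. The keratin gene KRT7 stood at 750, 542, 578 and 736 CPM in members and 643, 498.6, 590 and 591 CPM in other barcodes, in the same order, lower in members at 100 mGy alone. The N-cadherin gene CDH2, of the same marker list, was lower in members in each library, with log2 ratios of −0.31, −0.68, −0.48 and −0.37. Of the 6 markers of the line that were tested, 4 were lower in members at 100 mGy. KRT5, EPCAM and CDH1, which define many epithelia, were at or below 1.26 CPM in every pool, members and others alike. Of 14 markers of blood, endothelial, fibroblast and smooth muscle cells, 1 passed the level of 10 CPM used below, the collagen gene COL1A1, at 14.6 to 21.5 CPM in members and 20.8 to 25.7 CPM in other barcodes. The 14 markers summed to between 19.3 and 27.9 CPM in members and between 24.5 and 29.6 CPM in other barcodes. The leukocyte gene PTPRC and the T cell gene CD3D had 0 UMIs in the members of all 4 libraries, which allows a level of up to 0.693, 0.199, 0.511 and 0.551 CPM in the control, 10 mGy, 100 mGy and 1 Gy members.

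The pooled profile of the low-UMI barcodes was close to that of the other barcodes of the same library. Over 8500 genes with at least 10 CPM on average over the 8 pools, the log2 ratio of CPM, members over others, had a standard deviation across genes of 0.27 in the control, 0.28 for 10 mGy, 0.27 for 100 mGy and 0.31 for 1 Gy. The median standard error from counting was 0.11, 0.066, 0.10 and 0.096 in the same order, so the spread across genes was larger than counting error. Between 99.4% and 99.6% of the genes lay within 2-fold. Over 2-fold higher in members were 28 genes in the control (0.329% of the genes tested), 25 for 10 mGy (0.294%), 32 for 100 mGy (0.376%) and 25 for 1 Gy (0.294%). Over 2-fold lower were 3 genes in the control (0.0353%), 23 for 10 mGy (0.271%), 8 for 100 mGy (0.0941%) and 12 for 1 Gy (0.141%). In all 4 libraries 12 genes were over 2-fold higher (0.141%) and 0 were over 2-fold lower (0%).

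The small differences went the same way in the 4 libraries for many genes. The log2 ratio had the same sign in all 4 for 4328 of 8500 genes, with 1858 higher (21.9%) and 2470 lower (29.1%) in members. At a threshold of 1.2-fold, 281 genes were higher in all 4 libraries (3.31%) and 343 lower (4.04%). The lower count was 583 without the control library, 430 without 10 mGy, 519 without 100 mGy and 386 without 1 Gy. A gene has fewer libraries to pass in such a count, so a rise does not by itself single out the library left out. Without the barcode sequences found in more than 1 library, 268 of the 281 and 327 of the 343 genes were still past it. Across the 1779 genes of at least 100 CPM, Pearson's r between the log2 ratios of a pair of libraries ran from 0.69 (control and 10 mGy) to 0.86 (10 mGy and 100 mGy). Across all 8500 genes r was lower, from 0.54 (control and 10 mGy) to 0.72 (10 mGy and 1 Gy). These correlations are across genes, which are not independent replicates, and each library's ratios share its own depth and gene detection.

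Each members' pool lay at least as near to the other barcodes of its own library as to those of any other library. Over the 1779 genes the control members differed from control other barcodes with a standard deviation of 0.23 on the log2 scale, and from those of 10 mGy, 100 mGy and 1 Gy with 0.51, 0.56 and 0.27. Members at 10 mGy stood at 0.28 from their own library, 0.30 from 100 mGy, 0.68 from the control and 0.69 from 1 Gy. Members at 100 mGy stood at 0.24 from their own library, 0.29 from 10 mGy, 0.67 from the control and 0.69 from 1 Gy. Members at 1 Gy stood at 0.33 from their own library and 0.33 from the control, with 0.41 and 0.45 from 10 mGy and 100 mGy. The other barcodes of 1 Gy themselves stood at 0.52 and 0.59 from those of 10 mGy and 100 mGy, so the 1 Gy members lay nearer to that pair of libraries than the other barcodes of 1 Gy did.

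The gene groups below were taken in the order of where their RNAs act. The 13 MT genes encode subunits of the respiratory chain and ATP synthase, and their transcripts stay inside the mitochondrion. The rule capped their share in members, so their level is given as a description. They held 3.55% of members' UMIs and 5.93% of other barcodes' UMIs in the control, 3.10% and 4.61% for 10 mGy, 3.32% and 4.42% for 100 mGy, and 3.08% and 5.83% for 1 Gy. MT-CO2, a cytochrome c oxidase subunit, stood at 7871 CPM in control members and 15361 in other barcodes, 8397 and 14163 for 10 mGy, 9546 and 14268 for 100 mGy, and 7370 and 14708 for 1 Gy. Of the 13 genes, 11 were lower in members in all 4 libraries and 5 were so by over 1.2-fold, beside 29.1% and 4.04% of all genes tested. The list did not move as 1 block. MT-ATP8 had log2 ratios of 0.28, 0.04, 0.68 and 0.11, and those at 10 mGy and 1 Gy lay within counting error of 0. MT-ND6, the MT gene read from the opposite strand of the mitochondrial genome, had 0.36, 0.57, 0.92 and −0.28.

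Of the RNAs that stay in the nucleus, MALAT1 and NEAT1 were lower in members than in the pooled other barcodes of each library, and the rest of the list was mixed. MALAT1, a long noncoding RNA of nuclear speckles, stood at 10464 CPM in control members and 12626 in other barcodes, 5013 and 7959 for 10 mGy, 6527 and 7422 for 100 mGy, and 8788 and 12035 for 1 Gy. NEAT1, the scaffold RNA of paraspeckles, stood at 3325 and 3877 CPM in the control, 1256 and 3052 for 10 mGy, 1173 and 2187 for 100 mGy, and 2934 and 4524 for 1 Gy. The members were below the other barcodes for both RNAs in each library, with log2 ratios of MALAT1 between −0.67 (10 mGy) and −0.19 (100 mGy) and of NEAT1 between −1.28 (10 mGy) and −0.22 (control). The exact 95% intervals, which cover counting error only, were −1.30 to −1.26 for NEAT1 at 10 mGy and −0.25 to −0.20 in the control. The ratio at 10 mGy was thus far from the ratio in the control for the same RNA. Against the smallest other barcodes, those up to 2/3 of the library median, the order of MALAT1 was not the same in each library: these held 9549 CPM in the control and 6507 CPM at 100 mGy, where members held 10464 and 6527 CPM, and 7262 CPM at 10 mGy and 10270 CPM at 1 Gy, above the members. For NEAT1 these barcodes held 3286 CPM in the control, just under the members' 3325 CPM, and they held more than the members in the 3 irradiated libraries.

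Over the 9 tested RNAs of the nuclear retained list, the median log2 ratio was −0.06 in the control, −0.65 for 10 mGy, −0.21 for 100 mGy and −0.45 for 1 Gy, against medians of 0.01, −0.05, −0.01 and −0.08 over all genes tested. Of the 9, 5 were lower and 0 higher in all 4 libraries, and 0 passed 1.2-fold lower in all 4. For this list and the next pair, the shares over all genes were 29.1% lower, 21.9% higher and 4.04% past 1.2-fold lower. KCNQ1OT1, an imprinted antisense RNA, was at 11.4 CPM in members and 29.2 CPM in other barcodes at 10 mGy, and at 51.0 and 51.9 CPM in the control. FTX, a long noncoding RNA, went in opposite directions, with log2 ratios of 0.57 in the control and −0.38 at 10 mGy. Of the 15 host genes of small nucleolar RNAs, 9 were lower in all 4 libraries, and SNHG3 and SNHG7 passed 1.2-fold in all 4. SNHG3 had log2 ratios of −0.53, −0.72, −0.57 and −0.66, which gives it a place among the 15 lowest genes. Of 23 speckle and splicing genes, 11 were lower and 3 higher in all 4 libraries, and 0 passed 1.2-fold in all 4. NKTR, a cyclophilin-related gene, and SRRM2, a scaffold of speckles, had the most negative mean log2 ratios of that list, and for SRRM2 they were −0.14, −0.34, −0.31 and −0.43.

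**Figure D2:**
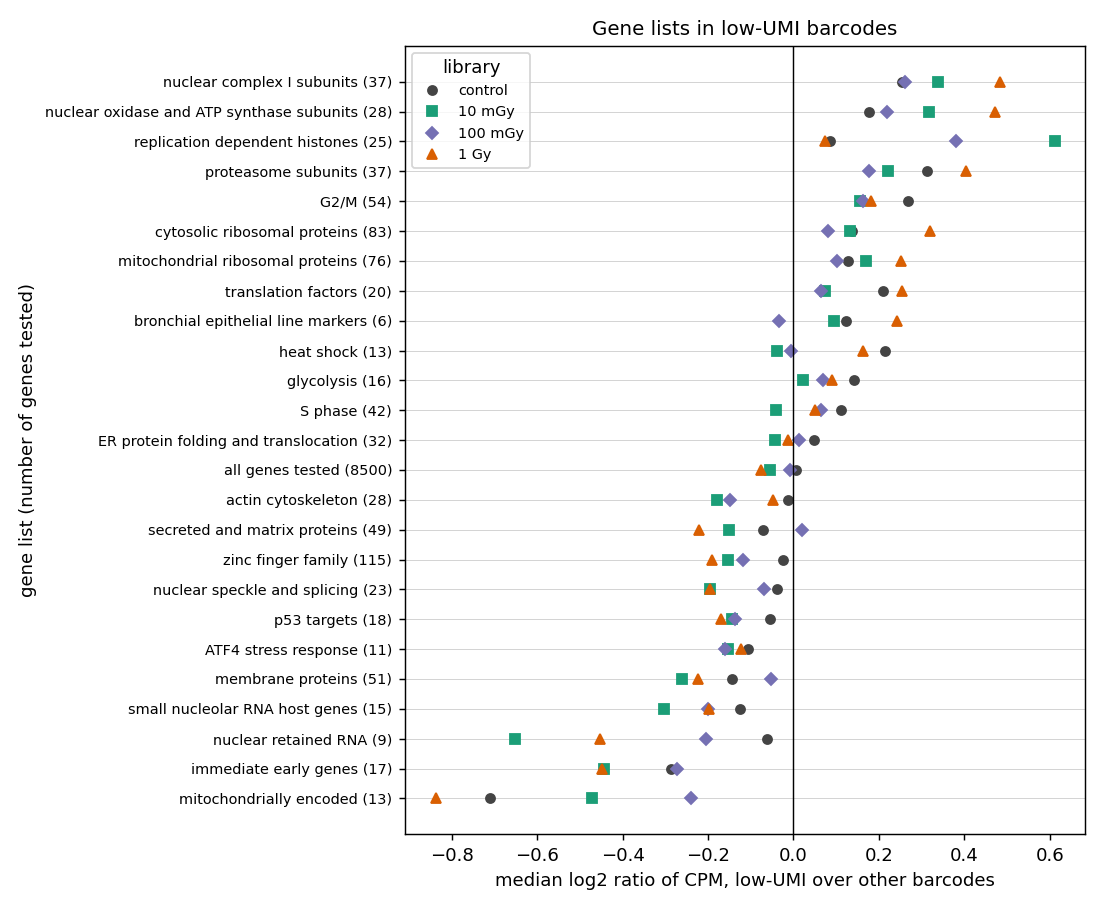
Median log2 ratio of CPM, low-UMI over other barcodes, for each gene list, on the horizontal axis, with 1 point per library and the number of tested genes in brackets. Nuclear complex I genes lie to the right of 0 in all 4 libraries (0.26 to 0.48), and immediate early and MT genes lie to the left in all 4.

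G2/M genes were higher in the pooled low-UMI barcodes than in the pooled other barcodes of each library. The 54 genes held 1.18% of members' UMIs and 0.978% of other barcodes' UMIs in the control, 0.906% and 0.798% for 10 mGy, 0.982% and 0.880% for 100 mGy, and 1.13% and 1.00% for 1 Gy. Their median log2 ratio was 0.27, 0.16, 0.16 and 0.18. The largest other barcodes, above 3/2 of the library median, held G2/M shares nearer to the members', at 1.11%, 0.858%, 0.969% and 1.11%. Members between 1/30 and 1/10 of the median held 1.11%, 0.910%, 0.960% and 1.13%, not above those largest barcodes in the control and at 100 mGy. Of the 54, 34 were higher in all 4 libraries and 3 lower, beside 21.9% and 29.1% of all genes tested. Past 1.2-fold in all 4 were 9 higher and 0 lower, beside 3.31% and 4.04% of all genes. CDCA3, a trigger of mitotic entry, was at 64.9 CPM in control members and 42.1 CPM in other barcodes, 85.7 and 48.4 for 10 mGy, 101 and 56.1 for 100 mGy, and 71.7 and 42.9 for 1 Gy. CCNB2, cyclin B2, had log2 ratios of 0.65, 0.79, 0.61 and 0.79. The other 7 of the 9, chosen after their values were seen, were AURKA, CCNB1, CDC20, CDCA8, CDK1, HMMR and NUF2, all with roles in mitosis. The 2 G2/M genes with the lowest mean ratios were the condensin gene NCAPD2, with log2 ratios of −0.04, −0.29, −0.20 and −0.17, and CTCF, a chromatin organizer, with −0.15, −0.25, −0.23 and −0.40.

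S phase genes differed less. Of 42 genes, 11 were higher and 8 lower in all 4 libraries, beside 21.9% and 29.1% of all genes, and the medians were 0.11, −0.04, 0.06 and 0.05. PCNA, the sliding clamp of DNA replication, was at 230 CPM in control members and 178 CPM in other barcodes, 351 and 243 for 10 mGy, 254 and 181 for 100 mGy, and 255 and 168 for 1 Gy. PCNA and the primase gene PRIM1 were the 2 genes of the list over 1.2-fold higher in all 4 libraries, a share near the 3.31% of all genes. The replication dependent histone genes, whose mRNAs mostly lack a poly(A) tail, split. Of 25 tested, 14 were higher and 3 lower in all 4 libraries, and the medians were 0.09, 0.61, 0.38 and 0.07. Past 1.2-fold in all 4 were 6 higher and 0 lower, beside 3.31% and 4.04% of all genes. HIST1H2AJ had log2 ratios of 0.48, 1.56, 1.43 and 0.68. HIST1H4C, the most abundant of the named histone genes, went the other way, at 774 CPM in control members and 1509 in other barcodes, 1621 and 1907 for 10 mGy, 1761 and 2799 for 100 mGy, and 891 and 1500 for 1 Gy. The 4 libraries agreed in the sign for both genes.

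Of 51 tested genes of membrane proteins, 26 were lower and 4 higher in members in all 4 libraries, beside 29.1% and 21.9% of all genes tested. Their medians were −0.14, −0.26, −0.05 and −0.22, beside 0.01, −0.05, −0.01 and −0.08 over all genes, and 5 passed 1.2-fold lower in all 4, beside 4.04% of all genes. CDH2, N-cadherin, stood at 148 CPM in control members and 183 in other barcodes, 83.3 and 133 for 10 mGy, 108 and 151 for 100 mGy, and 152 and 196 for 1 Gy. The other 4 over 1.2-fold lower in all 4, named after their values were seen, were the tetraspanin CD151, the growth factor receptor EGFR, the integrin ITGA3 and the syndecan SDC1. BSG, the glycoprotein basigin, had the lowest mean ratio of the list but did not pass 1.2-fold in the control, with log2 ratios of −0.25, −0.73, −0.59 and −0.54. ITM2B and the lysosomal membrane gene LAMP2 were higher, at 0.33, 0.15, 0.36 and 0.45 for ITM2B.

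Secreted and matrix protein genes split. Of 49 tested, 21 were lower and 9 higher in all 4 libraries, beside 29.1% and 21.9% of all genes, and the medians were −0.07, −0.15, 0.02 and −0.22. COL4A2, a collagen of basement membranes, was at 236 CPM in control members and 278 in other barcodes, 89.9 and 169 for 10 mGy, 114 and 178 for 100 mGy, and 179 and 288 for 1 Gy. LGALS1 and LGALS3, the galectins, were higher, and LGALS1 reached 5072 CPM in members and 3942 in other barcodes at 10 mGy, and 3406 and 2016 at 1 Gy. LIF, a cytokine gene, had log2 ratios of −0.38, −0.60, −0.32 and −1.29. The percent of UMIs that the whole list held was almost level, with 1.31% in members and 1.29% in others in the control and 1.17% and 1.12% at 10 mGy. Genes of protein folding and translocation in the endoplasmic reticulum had medians between −0.04 and 0.05, and KDELR1, the receptor that returns proteins to that compartment, was among the 15 lowest genes with log2 ratios of −0.53, −0.79, −0.87 and −0.71.

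Nuclear genes for the respiratory chain were among the most even groups. All 37 nuclear complex I genes were tested, 30 were higher in members in all 4 libraries and 0 lower, beside 21.9% and 29.1% of all genes, and 14 passed 1.2-fold higher in all 4, beside 3.31%. The medians were 0.26, 0.34, 0.26 and 0.48. NDUFB4 was at 142 CPM in control members and 90.6 in other barcodes, 328 and 185 for 10 mGy, 323 and 193 for 100 mGy, and 185 and 90.2 for 1 Gy. NDUFB6 and NDUFB3 were also among the 15 highest genes. Oxidase and ATP synthase genes of the nucleus had medians of 0.18, 0.32, 0.22 and 0.47, with 24 of 28 higher in all 4 libraries and 0 lower. Of the 28, 7 passed 1.2-fold higher in all 4. Proteasome subunit genes had medians of 0.31, 0.22, 0.18 and 0.40, with 28 of 37 higher in all 4 and 2 lower. Of the 37, 7 passed 1.2-fold higher and 0 lower in all 4. PSMB4, a subunit of the core particle, was at 181 CPM in control members and 122 in other barcodes, 315 and 177 for 10 mGy, 304 and 172 for 100 mGy, and 238 and 130 for 1 Gy.

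Of 83 cytosolic ribosomal protein genes, 50 were higher and 6 lower in members in all 4 libraries, beside 21.9% and 29.1% of all genes tested. The 3 that passed 1.2-fold higher in all 4 were a share near the 3.31% of all genes. Together they held 14.6% of members' UMIs and 13.9% of other barcodes' UMIs in the control, 21.1% and 19.8% for 10 mGy, 22.2% and 21.7% for 100 mGy, and 16.5% and 13.9% for 1 Gy. The smallest other barcodes, up to 2/3 of the library median, held 14.8%, 20.3%, 22.0% and 14.6%, which in the control was above the members' share. RPL31 was higher, with log2 ratios of 0.36, 0.87, 0.77 and 0.70. Of 76 mitochondrial ribosomal protein genes, 45 were higher and 4 lower in all 4, and 10 passed 1.2-fold higher and 0 lower in all 4. Of 20 translation factor genes, 12 were higher and 1 lower. EIF3H, a subunit of an initiation factor, was among the 15 highest genes, and EEF2, the elongation factor that moves the ribosome, was lower, at 863 CPM in control members and 1022 in other barcodes.

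Immediate early genes, which respond within minutes to growth factors and stress and whose mRNAs decay fast, leaned lower. Of 17 tested, 15 were lower and 1 higher in all 4 libraries, beside 29.1% and 21.9% of all genes. Past 1.2-fold lower in all 4 were 8, beside 4.04% of all genes, with list medians of −0.29, −0.44, −0.27 and −0.45. FOSB stood at 16.2 CPM in control members and 27.0 in other barcodes, 3.46 and 11.6 for 10 mGy, 4.09 and 8.23 for 100 mGy, and 16.9 and 37.2 for 1 Gy. The exception was EGR1, with log2 ratios of 0.27, 0.37, 0.47 and 0.13. Of 18 tested p53 target genes, 9 were lower and 1 higher in all 4 libraries, with medians between −0.17 and −0.06. For heat shock genes the medians were 0.21, −0.04, −0.01 and 0.16, and for the ATF4 stress genes they lay between −0.16 and −0.11. Glycolysis genes had medians of 0.14, 0.02, 0.07 and 0.09. Of 28 actin cytoskeleton genes, 10 were lower and 5 higher in all 4, beside 29.1% and 21.9% of all genes. Past 1.2-fold in all 4 were 4 lower and 3 higher, beside 4.04% and 3.31% of all genes. The 2 myosin light chain genes MYL12A and MYL12B were higher while ACTN4 and TAGLN2 were lower. Zinc finger genes had medians of −0.02, −0.15, −0.12 and −0.19 over 115 tested.

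The 15 genes with the most negative ratios, among those of at least 50 CPM on average, held no MT gene by rule and were led by MIDN and ZFP36L1. MIDN, midnolin, a nuclear protein that brings immediate early proteins to the proteasome, was at 38.3 CPM in control members and 72.0 in other barcodes, 28.3 and 62.6 for 10 mGy, 31.5 and 57.0 for 100 mGy, and 36.9 and 83.9 for 1 Gy. Its log2 ratios were −0.91, −1.15, −0.86 and −1.18, and the widest of their intervals went from −1.14 to −0.69 in the control. ZFP36L1, an mRNA decay factor, was at 207 and 339 CPM in the control, 124 and 225 for 10 mGy, 103 and 185 for 100 mGy, and 169 and 324 for 1 Gy. The others were CYP1B1, KDELR1, EPHB2, NUTF2, PLSCR3, ZBTB7A, NR2F2, SNHG3, SOX4, GRINA, GNB2, FJX1 and XPO6. They include the transcription factors ZBTB7A, NR2F2 and SOX4, the ephrin receptor EPHB2 and the nuclear transport factors NUTF2 and XPO6. NR2F2 had almost the same log2 ratio in each library, −0.61, −0.60, −0.63 and −0.67.

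**Figure D3:**
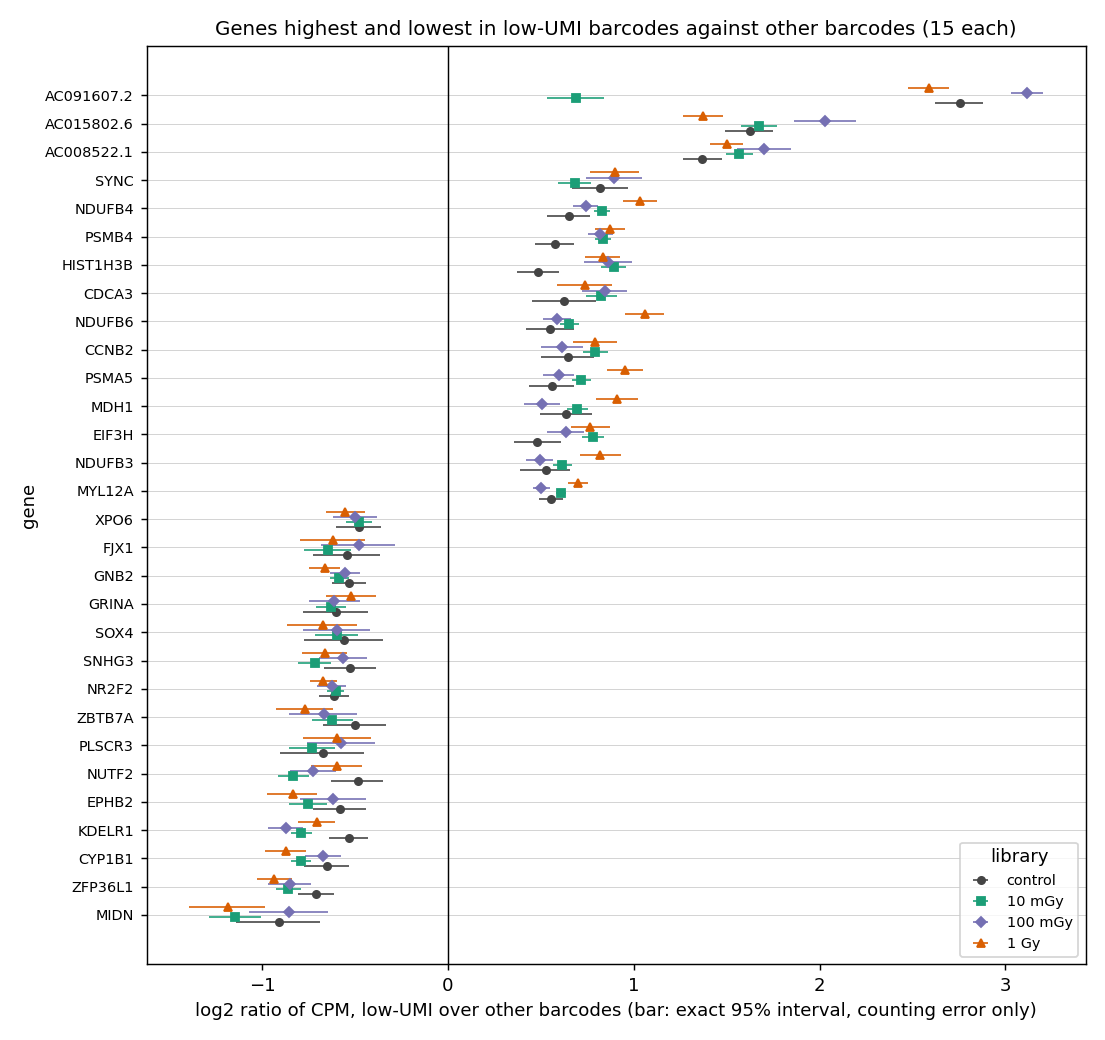
Log2 ratio of CPM, low-UMI over other barcodes, on the horizontal axis, for the 15 genes with the highest and the 15 with the lowest smallest ratio among genes of at least 50 CPM, 1 point per library. Bars are exact 95% intervals for counting error. The 4 libraries lie close together for most genes, and AC091607.2 at 10 mGy (0.69) lies far from its other 3 points (2.59 to 3.12).

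The 15 highest genes were AC091607.2, AC015802.6, AC008522.1, SYNC, NDUFB4, PSMB4, HIST1H3B, CDCA3, NDUFB6, CCNB2, PSMA5, MDH1, EIF3H, NDUFB3 and MYL12A. The floor of 50 CPM was a mean over members' and other barcodes' pools together. A gene could thus pass it through its higher pools alone. In other barcodes AC091607.2 was at 19.1, 15.5, 25.8 and 24.1 CPM (control, 10 mGy, 100 mGy, 1 Gy), each under 50 CPM. In reverse, MIDN of the lowest genes was under 50 CPM in each members' pool. AC015802.6 was at 120 CPM in control members and 39.0 in other barcodes, 67.7 and 21.2 for 10 mGy, 55.7 and 13.6 for 100 mGy, and 135 and 52.2 for 1 Gy. In control members its 521 UMIs came from 439 barcodes with at most 3 UMIs in any of them, so they were not the product of a few barcodes. AC008522.1 was at 181 and 70.1 CPM in the control, 119 and 40.2 for 10 mGy, 70.5 and 21.7 for 100 mGy, and 206 and 72.7 for 1 Gy. MDH1, cytosolic malate dehydrogenase, had log2 ratios of 0.64, 0.70, 0.51 and 0.91.

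Most of the genes over 2-fold higher in all 4 libraries were annotated on the strand opposite another expressed gene. By the GENCODE 29 annotation, matched by gene identifier, 11 of the 12 had an entry, and 9 of these 11 were long noncoding, of which 8 were of the antisense class. Long noncoding genes were 2.10% of the 8491 matched genes. All 11 overlapped a tested gene on the opposite strand, as did 1591 of 8491 genes, or 18.7%. The same was true of 31.8% of the 277 matched genes over 1.2-fold higher in all 4 libraries and of 14.6% of the 342 over 1.2-fold lower. The 12 genes were singled out after their values were seen and besides AC008522.1 and AC015802.6 were STARD4-AS1, LHFPL5, PRC1-AS1, AL133453.1, AC009133.1, AC011603.2, AC011462.5, AC108863.2, AC124283.1 and AL354740.1, these 10 all under 50 CPM on average over the 8 pools.

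The genes opposite to them did not show the same ratio. STARD4-AS1 was at 56.6 CPM in control members and 16.9 in other barcodes, and had log2 ratios of 1.75, 1.58, 1.78 and 1.77, while STARD4, a sterol carrier gene, had −0.22, 0.18, 0.29 and −0.27. PRC1-AS1 had 1.73, 1.76, 1.95 and 1.42, and PRC1, a gene of the spindle midzone, had 0.33, 0.25, 0.02 and 0.12. RGMB, opposite to AC008522.1, had −0.06, −0.35, −0.20 and −0.43. The 59 tested genes of the antisense class had medians near 0 (−0.07, 0.00, −0.09 and −0.09) but a wide upper end, with 95th percentiles of 1.75, 1.57, 1.92 and 1.54 against 0.39, 0.38, 0.39 and 0.46 for protein coding genes. Of the 59, 15 were over 1.2-fold higher and 9 over 1.2-fold lower in all 4 libraries, beside 3.31% and 4.04% of all genes tested. The 76 lincRNA genes had medians of −0.11, −0.30, −0.18 and −0.23. Whether the counting used strand is not given in the sources used here. Whether reads of a gene were counted for its opposite partner was not tested.

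A few genes differed between libraries by far more than counting error. The 5 with the widest range of log2 ratios were AC091607.2, LRRC75A, CTNNB1, PLCG2 and MT-ND6. AC091607.2 was at 129 CPM in control members and 19.1 in other barcodes, 25.1 and 15.5 for 10 mGy, 224 and 25.8 for 100 mGy, and 145 and 24.1 for 1 Gy. LRRC75A was at 151 and 40.7 CPM in the control, 39.5 and 46.3 for 10 mGy, 186 and 58.8 for 100 mGy, and 88.9 and 46.3 for 1 Gy. CTNNB1, beta-catenin, was at 137 and 81.0 CPM in the control, 51.0 and 63.6 for 10 mGy, 162 and 76.2 for 100 mGy, and 132 and 90.0 for 1 Gy. For each of these 3 genes the lowest members' pool was that of 10 mGy, and the members of 1 Gy were also below those of the control and 100 mGy for LRRC75A. PLCG2, a phospholipase C, behaved otherwise, at 130 and 119 CPM in the control, 170 and 64.5 for 10 mGy, 113 and 48.1 for 100 mGy, and 143 and 129 for 1 Gy. Its other barcodes were lower for 10 mGy and 100 mGy than in the remaining libraries, and its members were highest for 10 mGy.

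The low-UMI barcodes differed less among themselves in G2/M genes than the other barcodes did, apart from the largest members described below. After each barcode was thinned to 500 UMIs, the variance of its G2/M UMIs was divided by the variance that drawing from 1 common mix would give, so that 1 stands for counting error alone. This spread was 1.35 for members and 1.93 for other barcodes in the control, 1.04 and 1.77 for 10 mGy, 1.17 and 1.87 for 100 mGy, and 1.12 and 1.90 for 1 Gy. Members at 10 mGy thus differed in G2/M UMIs by little more than counting error, although they held on average more of these UMIs than other barcodes, 4.51 against 3.87 of 500. The lower end of the distribution was thinner in each library. Barcodes with 0 G2/M UMIs made up 0.483% of members and 2.44% of other barcodes in the control, 1.18% and 4.17% for 10 mGy, 1.10% and 3.43% for 100 mGy, and 0.571% and 2.26% for 1 Gy. Barcodes with 12 or more made up 0.320% of members at 10 mGy (28 barcodes, exact 95% interval 0.213% to 0.462%) and 1.36% of other barcodes (1.17% to 1.58%). In the control the shares at 12 or more were 3.43% (2.69% to 4.31%) and 3.38% (3.01% to 3.77%). These intervals cover the sampling of barcodes within 1 library and make no test between pools.

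**Figure D4:**
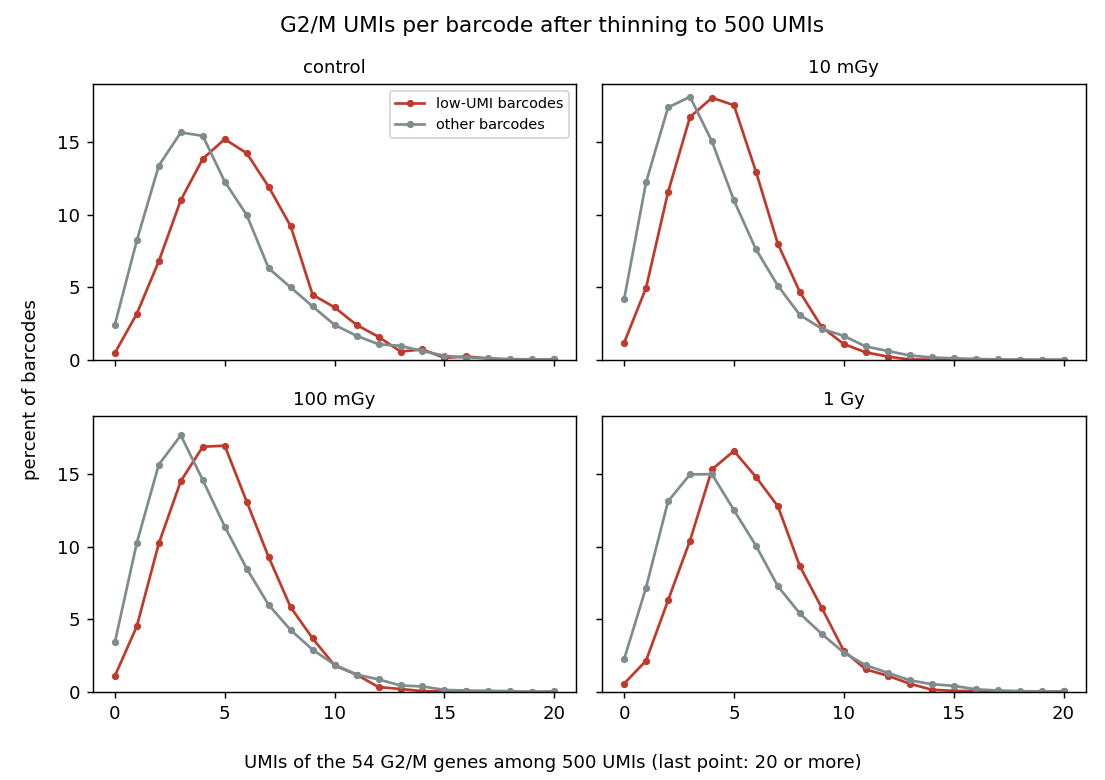
Percent of barcodes (vertical axis) by the number of UMIs of the 54 G2/M genes among 500 UMIs (horizontal axis, last point 20 or more), 1 panel per library, with low-UMI barcodes in red and other barcodes in grey. The red curves are shifted right and narrower at their left end, with 1.18% of members and 4.17% of other barcodes at 0 for 10 mGy.

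The evenness was not shared by all genes. For the 9 nuclear retained RNAs the spread was 3.17 for members and 2.17 for other barcodes in the control, 1.38 and 2.09 for 10 mGy, 2.48 and 2.24 for 100 mGy, and 2.88 and 2.23 for 1 Gy. Of the 4, the 10 mGy members alone were more even than the other barcodes of their library. MT genes were less even in members in all 4 libraries, with 4.50 against 2.80 in the control and 5.18 against 2.85 at 100 mGy, although the rule limited the MT share. For cytosolic ribosomal protein genes the spread was 4.22 against 2.32 in the control and 2.72 against 2.35 at 1 Gy, and 1.498 against 2.33 at 10 mGy and 2.12 against 2.78 at 100 mGy. Histone genes were more even in members in each library, with 1.40 against 1.74 in the control, 1.18 against 1.77 for 10 mGy, 1.34 against 1.94 for 100 mGy and 1.253 against 1.55 for 1 Gy. S phase genes lay nearer to counting error, and their spread was lower in members in each library. It was 1.07 against 1.13 in the control, 1.03 against 1.12 for 10 mGy, 1.08 against 1.13 for 100 mGy and 1.06 against 1.13 for 1 Gy. These small differences were not tested.

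The members also differed by their size. They were split at 1/10 and 1/5 of the library median, and the largest of them reached up to 1/3. MT genes held 2.88% of the pooled UMIs of control members between 1/30 and 1/10, 3.73% between 1/10 and 1/5, and 4.08% between 1/5 and 1/3, against 5.88% just outside the limit. At 10 mGy the same shares were 2.73%, 3.07%, 4.15% and 5.36%, at 100 mGy 2.92%, 3.32%, 4.63% and 5.15%, and at 1 Gy 2.80%, 3.09%, 4.06% and 5.80%. Both the size and the MT share belong to the rule, so these values are a description. The 116 control members under 1/30 had 2.15%, a band that no deposited barcode of the other libraries could enter, since 1/30 of their medians lies below 500 UMIs. Nuclear complex I genes held 0.677%, 0.602% and 0.617% in control members of these 3 sizes, 1.07%, 1.07% and 0.997% for 10 mGy, 1.13%, 1.07% and 0.995% for 100 mGy, and 0.788%, 0.742% and 0.624% for 1 Gy. Just outside the limit they held 0.587%, 0.938%, 0.945% and 0.556%, and in all other barcodes 0.533%, 0.843%, 0.901% and 0.525%. Proteasome genes held 0.805%, 0.934%, 0.881% and 0.751% just outside the limit, beside 0.919%, 1.10%, 1.04% and 0.994% in all members.

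**Figure D5:**
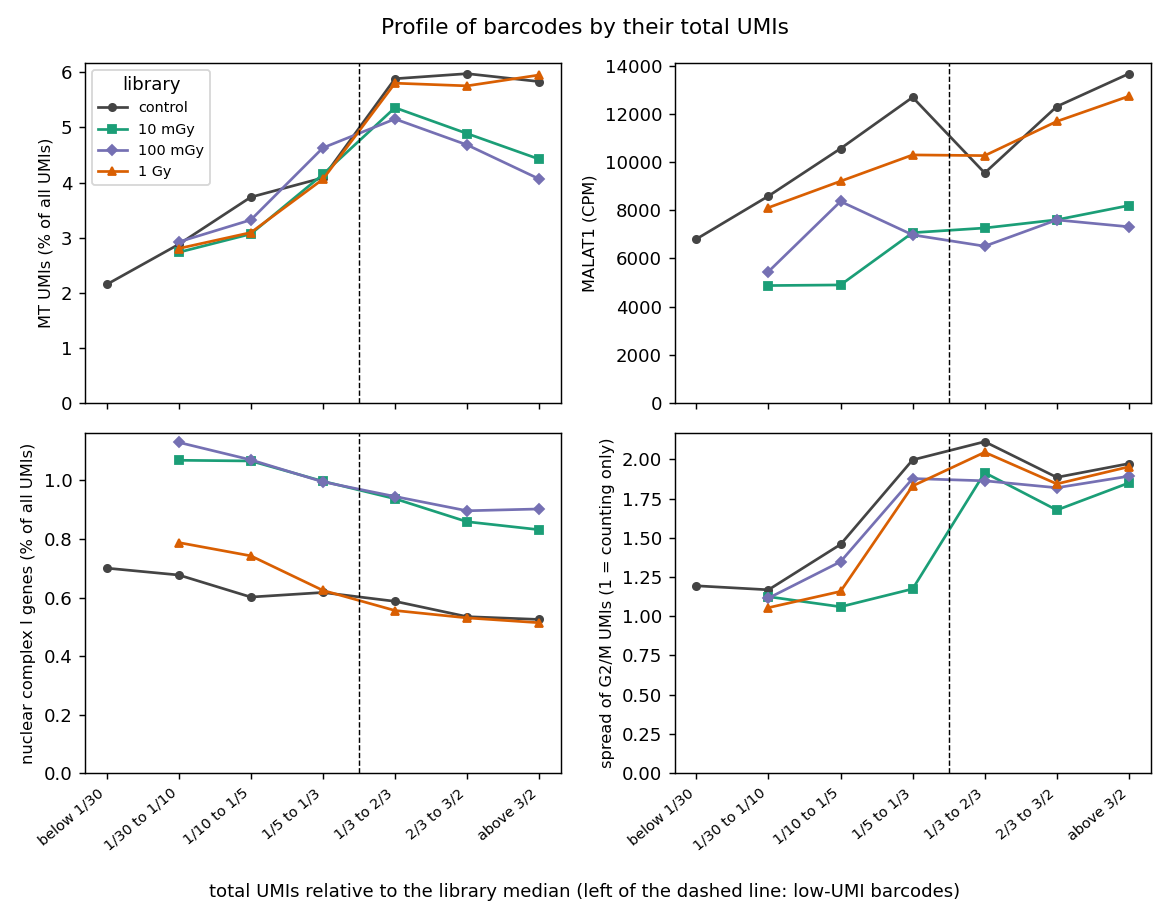
Values of pooled barcodes by their total UMIs relative to the library median (horizontal axis), 1 line per library, in 4 panels that give the MT share, MALAT1, the share of nuclear complex I genes and the spread of G2/M UMIs. Points left of the dashed line are low-UMI barcodes. At 100 mGy the G2/M spread is 1.12 for the smallest members and 1.88 for the largest, next to 1.86 just outside the limit.

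The evenness in G2/M genes was found in the smaller members in the control, 100 mGy and 1 Gy libraries. In the control the spread was 1.17 between 1/30 and 1/10, 1.46 between 1/10 and 1/5 and 1.997 between 1/5 and 1/3, against 2.11 just outside. At 100 mGy it was 1.12, 1.35, 1.88 and 1.86, and at 1 Gy 1.05, 1.16, 1.83 and 2.05. In these 3 libraries the 215, 293 and 224 largest members were thus about as uneven as other barcodes. At 10 mGy the 238 largest members stayed at 1.17, against 1.92 just outside the limit. MALAT1 was lower in smaller members of the control and of 1 Gy, at 8589 CPM between 1/30 and 1/10 and 12692 CPM between 1/5 and 1/3 in the control, and 8110 and 10299 CPM at 1 Gy. At 10 mGy it was 4872 CPM between 1/30 and 1/10, 4897 between 1/10 and 1/5 and 7068 between 1/5 and 1/3. At 100 mGy the middle members were highest, with 5451, 8366 and 6976 CPM.

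Members were split by their MT share as well. Those of at most 1% MT numbered 99 in the control, 67 for 10 mGy, 270 for 100 mGy and 83 for 1 Gy. Their ribosomal protein UMIs had a spread of 24.1 in the control, 32.6 for 10 mGy, 10.4 for 100 mGy and 23.0 for 1 Gy, against 3.42, 1.21, 1.59 and 2.34 for members of 1% to 3% MT. MALAT1 was lower at or under 1% MT than from 1% to 3% in the control (5587 and 9489 CPM), at 100 mGy (4820 and 6880 CPM) and at 1 Gy (6393 and 8607 CPM), and higher at 10 mGy (5879 and 4912 CPM). The G2/M spread was 1.79 and 1.34 in the control, 1.196 and 1.05 for 10 mGy, 1.195 and 1.22 for 100 mGy, and 1.51 and 1.08 for 1 Gy. The members of least MT share were therefore few and varied, and the bulk of the members lay from 1% to 5% MT.

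Longer genes had lower ratios at 10 mGy and 1 Gy, and less so at 100 mGy. Across 8491 genes with a GENCODE 29 exonic length, Spearman's rho between length and log2 ratio was −0.02 in the control, −0.29 for 10 mGy, −0.12 for 100 mGy and −0.30 for 1 Gy. With the genomic span in its place rho was 0.11, −0.16, 0.00086 and −0.12. These are descriptions across genes, with no p, and the build of that annotation is not the one named in the submitters' processing notes. The shortest 25% of genes had a median log2 ratio of 0.04 at 10 mGy and 0.08 at 1 Gy, and the longest 25% −0.16 and −0.18. Without MT and ribosomal protein genes rho of exonic length was −0.02, −0.29, −0.12 and −0.30. Among the 1684 of these genes with at least 100 CPM it was −0.09, −0.35, −0.22 and −0.38. The part of length in the gene lists above was not tested.

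Doses were compared within the low-UMI barcodes and within the other barcodes, side by side and without a test. Over all genes tested the median log2 ratio to the control was −0.33 for 10 mGy, −0.37 for 100 mGy and −0.05 for 1 Gy in members, and −0.30, −0.38 and 0.02 in other barcodes, and list values are to be read against these shifts. Cytosolic ribosomal protein genes had medians of 0.58, 0.61 and 0.19 in members and 0.54, 0.65 and 0.02 in other barcodes. Nuclear complex I genes had 0.73, 0.73 and 0.22 in members and 0.63, 0.73 and −0.03 in other barcodes. At 10 mGy and 100 mGy the 2 kinds of barcode gave similar values for these lists, and at 1 Gy the members stood further above their control than the other barcodes did, a difference that was not tested. Nuclear retained RNAs had −1.40, −1.38 and −0.32 in members and −0.84, −1.08 and 0.06 in other barcodes. For G2/M genes the medians were −0.59, −0.33 and −0.07 in members and −0.42, −0.21 and 0.06 in other barcodes. Histone genes had −0.30, −0.78 and −0.34 in members and −0.98, −1.18 and −0.37 in other barcodes. NEAT1 was lower than in the control by more in members than in other barcodes at 10 mGy, with log2 ratios of −1.40 and −0.35.

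The ratio of members to other barcodes ran partly along the difference between libraries. The other barcodes of the control and 1 Gy were close to each other, with a standard deviation of 0.11 over the 1779 genes, and so were those of 10 mGy and 100 mGy, with 0.16, while the pairs across stood at 0.51 to 0.59. The members' ratio in 1 library was set against the ratio of other barcodes between 2 further libraries, so that no pool was used on both sides. Pearson's r across genes was 0.61 and 0.62 for the 1 Gy members (10 mGy and 100 mGy over the control), 0.43 and 0.44 for 10 mGy (100 mGy over the control and over 1 Gy), 0.26 and 0.28 for 100 mGy (10 mGy over the control and over 1 Gy), and 0.25 and 0.27 for the control (10 mGy and 100 mGy over 1 Gy).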

How the data were processed

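Single-cell libraries were prepared with a 3′ v3 kit from BEAS-2B cells, 1 library per dose. For 36601 genes, unnormalized UMI counts of each barcode were deposited by the authors. The file headers name Cell Ranger 7.0.1, and the submitters' processing notes name Cell Ranger, STAR and GRCh37. Not given in the sources used here are the annotation, the intron and strand settings and the cell call. Libraries held 211752280 to 285806026 UMIs, and no filter beyond the rule was applied. Doublets were kept and not called.

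Counts were summed over members and over other barcodes of each library and scaled to CPM. Genes needed 10 CPM on average over the 8 pools, and no sum of a tested gene was 0. Exact 95% (Clopper-Pearson) intervals of log2 ratios cover counting error only. Members differ from the rest by the rule, so no test was made. Barcodes were thinned to 500 UMIs (seed 11) for genes per barcode and spread. Genes named were the 15 highest and 15 lowest by the log2 ratio nearest 0 over the 4 libraries, among genes of at least 50 CPM with 1 sign in all 4 (no MT genes), the 5 with the widest range, the 2 highest and 2 lowest of each list by mean log2 ratio, and MALAT1 and NEAT1. Not every gene this rule names is reported here. Others are said to be chosen after their values were seen. The spread, its limit of 12 G2/M UMIs, the 1.2-fold counts, the gene classes and the strand overlaps were also taken up after the data were seen. The members and lists were chosen with earlier results of these data known. Gene lengths, types and overlaps came from GENCODE 29, whose build differs from GRCh37, by gene identifier for 99.9% of genes. Ratios and spread were tested on simulated data. Tools were scipy 1.17.1, numpy 2.4.6 and pandas 2.3.3 under Python 3.11.15, and matplotlib 3.10.9.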

Additional observations from a re-analysis of the deposited data

Results flagged for a closer look

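The difference between members and other barcodes took opposite directions in 2 libraries for 3 named genes, each past 1.2-fold both ways with counting intervals that did not include 0. The differences between libraries were not tested, since each dose has 1 library. CTNNB1 had log2 ratios of 0.76 in the control, −0.32 for 10 mGy, 1.08 for 100 mGy and 0.55 for 1 Gy. MT-ND6 had 0.36 in the control, 0.57 for 10 mGy, 0.92 for 100 mGy and −0.28 for 1 Gy. FTX had 0.57 in the control, −0.38 for 10 mGy, 0.066 for 100 mGy and −0.074 for 1 Gy, and the last 2 lie within counting error of 0.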

How the results depend on the processing

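Counts of genes over 2-fold depended on the level a gene needed and on the threshold. With a floor of 1 CPM, 404, 137, 295 and 263 genes were higher and 164, 206, 206 and 207 lower (control, 10 mGy, 100 mGy, 1 Gy), with 80 higher in all 4. With a floor of 100 CPM these were 0, 2, 1 and 4 higher, 0, 4, 0 and 2 lower, and 0 higher in all 4. At 1.5-fold they were 108, 100, 113 and 211 higher, 131, 235, 111 and 307 lower, and 26 and 9 in all 4. Genes lower in the control numbered 11 with members of at most 5% MT, 11 below 1/5 of the median, 12 by the mean over barcodes, 5 without MT genes and 7 without MT and ribosomal protein genes. Genes lower at 100 mGy numbered 20 below 1/5 of the median, 19 by the mean over barcodes and 15 without MT and ribosomal protein genes, and at 1 Gy 20 with at most 5% MT, 20 below 1/5, 22 by the mean over barcodes and 7 with the median ratio set to 1. Leaving out each library in turn gave 12 to 17 genes over 2-fold higher and 0 to 3 lower (3 without the control), and 329 to 391 higher and 386 to 583 lower by 1.2-fold (583 without the control, 519 without 100 mGy). With fewer libraries to pass, such counts are easier to enter. The floors of 1 and 100 CPM gave 539 and 96 higher and 532 and 82 lower by 1.2-fold in all 4. The spread of G2/M UMIs was 1.247 in the control below 1/5 of the median, 1.22 in the control and 1.00 at 10 mGy with 300 UMIs, and 1.18 at 1 Gy without shared barcode sequences. Median genes per member were 414, 389, 385 and 410 with 500 UMIs, since fewer UMIs show fewer genes. A draw of 300 UMIs also leaves less of the spread above 1, by how the spread is computed. The cause of the other shifts was not tested. No list median over 1.2-fold in size changed sign under these settings, while medians near 0 did for S phase genes at 10 mGy and 100 mGy, secreted protein genes at 100 mGy and histone genes in the control and 1 Gy libraries. Of the list medians recomputed, 1234 moved by less than the standard deviation over their list and 50 by more. No ratio of a named gene past the threshold changed sign. Of the 281 genes higher and 343 lower in all 4 libraries, at least 216 and 271 were kept under each of the 12 settings other than the floor of 100 CPM. Among these settings, a minimum of 500 UMIs per barcode and the floor of 1 CPM could not lose a gene. No deposited barcode had fewer than 500 UMIs, and a lower floor only adds genes. No paired test over the 4 libraries was made, because the members were chosen from the barcodes they are compared with. Depth limits the control members most, with 4329236 UMIs.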
